A study of Homo sapiens with 16 samples.

Results

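Human myeloma cells that received a short hairpin RNA (shRNA) against the receptor CD28 were compared with the same cells carrying either of 2 control constructs. The CD28 shRNA libraries are 4 of the 16 in the series, and they were chosen by their labels alone. They come from 4 backgrounds: the myeloma lines MM.1s, RPMI8226 and KMS18, and RPMI8226 made to overexpress the survival protein Mcl1 (called the Mcl1 line here). The controls are 8 libraries of the same backgrounds, 4 with an shRNA against Gapdh, a glycolytic enzyme, and 4 with the empty pLK0.1 vector (Vec). Each background received each construct once, so each pairing of the 2 has 1 library and the backgrounds served as the replicates. The Mcl1 line derives from RPMI8226, so these 2 backgrounds are not independent of each other. How many hairpins were used against CD28, what their sequences were and how long after transfection RNA was taken is not given in the sources used here.

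CD28 is best known as the costimulatory receptor of T cells, which binds the ligands CD80 and CD86 and signals through the phosphoinositide 3-kinase (PI3K) pathway and NF-kB. Normal and malignant plasma cells can carry CD28 as well, and myeloma cells often carry CD86 beside it, so that receptor and ligand can meet on the same or neighbouring cells. Myeloma is a cancer of plasma cells, whose identity depends on the transcription factors IRF4, PRDM1 and XBP1 and whose survival depends on members of the BCL2 family such as MCL1.

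Levels are FPKM as the authors deposited them, which express reads relative to exon length and library size. Where 4 values follow each other, they stand for MM.1s, RPMI8226, KMS18 and the Mcl1 line in that order. Reads in genes numbered 3914513 to 4577443 in the CD28 shRNA libraries, against 4676493 to 5288893 in the Gapdh shRNA libraries and 4717059 to 5900955 in the Vec libraries, and the CD28 shRNA library was the shallowest in each background. The label of myeloma cells was checked against plasma cell markers, all 9 of which averaged at least 1 FPKM in each construct group. Not every library held all 9, since SLAMF7 ranged from 0 to 155 FPKM over the 12 libraries. Their summed level was 868 to 1839.6 FPKM per library with CD28 shRNA, 916 to 2047 FPKM with Gapdh shRNA and 927 to 1845 FPKM with Vec. None of 9 myeloid or 8 stromal markers averaged 1 FPKM in any group. The 9 T cell markers summed to 4.65 to 34.4 FPKM with CD28 shRNA, against 3.84 to 23.7 FPKM with Gapdh shRNA and 4.75 to 25.0 FPKM with Vec, with 1, 4 and 2 of the 9 at 0 throughout those groups. The 9 B cell markers summed to 31.9 to 119 FPKM with CD28 shRNA, against 13.7 to 92.4 FPKM with Gapdh shRNA and 19.4 to 103 FPKM with Vec.

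The targeted gene was examined first. CD28 was at 42.7, 55.99, 32.4 and 35.7 FPKM with CD28 shRNA, against 78.4, 77.1, 47.7 and 49.7 FPKM with Gapdh shRNA and 65.7, 70.6, 45.8 and 52.9 FPKM with Vec. In each background the CD28 shRNA library lay below both controls, and the level was 68.5% ± 6.83 of the mean of the controls (SD, n = 4 backgrounds). The difference passed the test (log2 difference -0.54, SE 0.067, adjusted p = 0.000521, from limma with Benjamini-Hochberg adjustment over all genes, as for every adjusted p below). An exact permutation of the construct labels within backgrounds gave a two-sided p of 0.0123, the smallest that the 81 assignments allow. The CD28 message was reduced and not lost, at 59.3% of the controls in MM.1s and 69.4% to 75.8% elsewhere.

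CD86, the ligand, rose. It was at 8.97, 11.4, 3.097 and 12.3 FPKM with CD28 shRNA, against 6.46, 6.51, 3.45 and 5.46 FPKM with Gapdh shRNA and 3.18, 6.92, 2.49 and 5.796 FPKM with Vec. The CD28 shRNA library was above both controls in MM.1s, RPMI8226 and the Mcl1 line, whereas in KMS18 it lay between them. The difference was 0.64 on the log2 scale (SE 0.17, adjusted p = 0.0278; exact permutation p = 0.0247). The call did not hold without MM.1s (adjusted p = 0.0587), without RPMI8226 (0.103) or without the Mcl1 line (0.152). Of the 13 receptors and ligands of the CD28 family, 7 were abundant enough to be tested. CD28 (lower) and CD86 (higher) were the members called, 14.3% each, against 7.69% and 5.09% of all genes. The second CD28 ligand, CD80, stayed at or below 0.760 FPKM in every library.

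**Figure D1:**
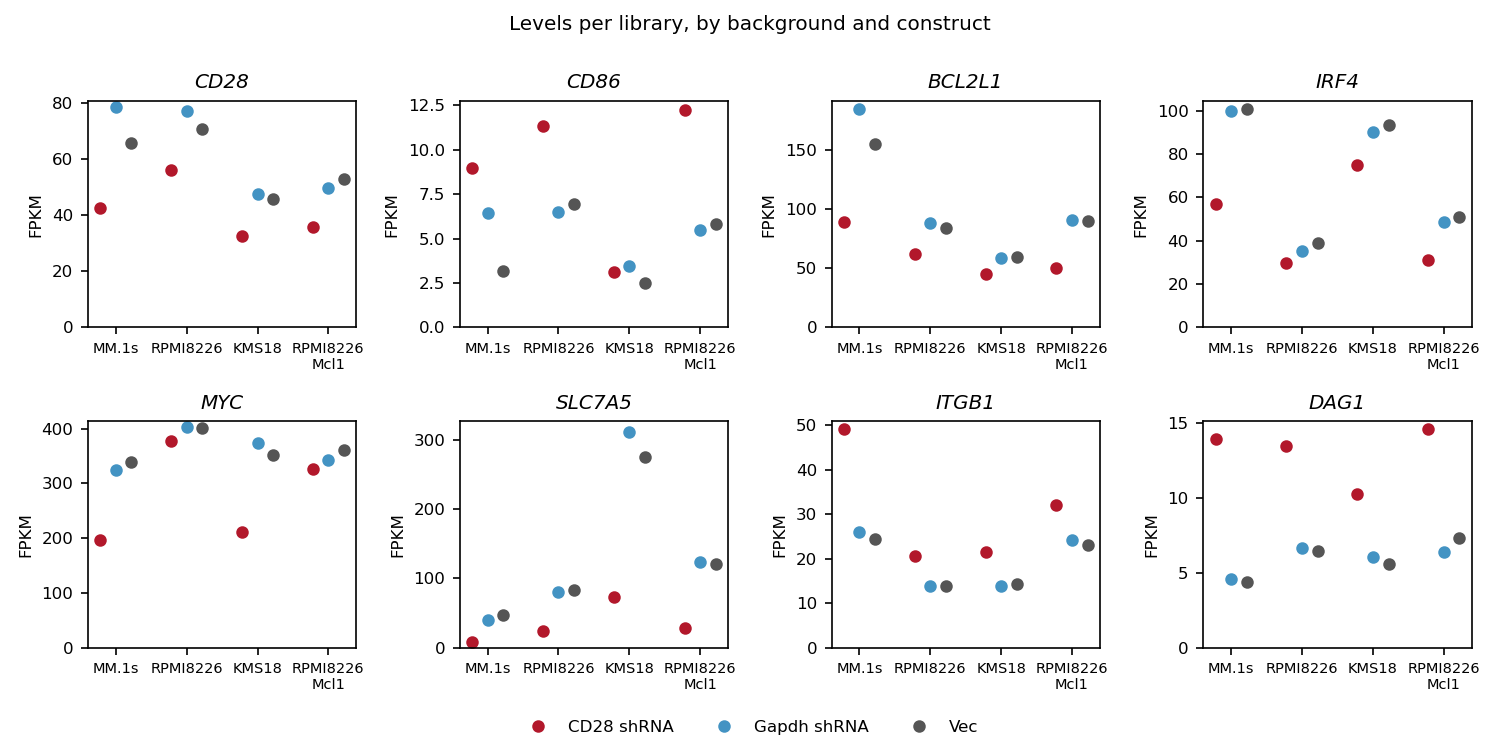
FPKM (vertical axes, from 0) of 8 genes in the 12 libraries, by background (horizontal axes) and construct, with 1 point per library. CD28, BCL2L1, IRF4, MYC and SLC7A5 lie below both controls in each background with CD28 shRNA, ITGB1 and DAG1 lie above both, and CD86 lies above both in all but KMS18.

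Across the transcriptome, 1451 of 11350 genes differed between CD28 shRNA and the controls at an adjusted p under 0.05 (12.8%), 578 of them higher (5.09%) and 873 lower (7.69%). Most changes were small: the median size was 0.40 on the log2 scale among higher genes and -0.39 among lower ones, and 10 genes rose and 29 fell by at least 1. The median over all 11350 genes was 0.0015. Among all genes, 791 (6.97%) were above both controls in all 4 backgrounds and 1063 (9.37%) below both, and these include 463 of the 578 higher and 764 of the 873 lower calls. When 1 background was left out, the count was 777 without MM.1s, 883 without RPMI8226, 941 without KMS18 and 689 without the Mcl1 line, with 234 to 359 genes higher and 455 to 587 lower. After all libraries were thinned to 3914513 reads, 512 genes were higher and 808 lower. When levels were rescaled by the median of ratios, 679 were higher and 777 lower, so the size of the excess of lower calls depended on the scaling.

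The controls themselves were close to each other. Between Gapdh shRNA and Vec 1 gene passed (0.00881%), against 640 at an unadjusted p under 0.05 (5.64%). That gene, LAMTOR5-AS1, is an antisense transcript with 0 to 3 reads per Gapdh shRNA library and 3 to 13 per Vec library, so few that no size is given, and its reads cannot be told apart from those of genes on the other strand. GAPDH is the target of 1 control and was left out of the genes tested.

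The largest falls were in SLC7A5 and a group of genes with no common textbook pathway. SLC7A5 encodes LAT1, the membrane transporter that carries leucine and other large neutral amino acids into the cell. It was at 8.47, 23.6, 73.4 and 28.4 FPKM with CD28 shRNA, against 40.2, 79.9, 312 and 123 FPKM with Gapdh shRNA and 46.7, 83.4, 276 and 120.3 FPKM with Vec. Every CD28 shRNA library was far below both of its controls, and SLC7A5 fell to 24.2% ± 3.91 of the control level (SD, n = 4 backgrounds; log2 difference -2.0, SE 0.073, adjusted p = 2.7e-08). The next falls were in C20orf27, a gene of unclear function, and MFSD1, a membrane protein of the lysosome. C20orf27 was at 7.22, 12.8, 4.55 and 12.5 FPKM with CD28 shRNA, against 24.5, 37.8, 20.1 and 34.6 FPKM with Gapdh shRNA and 26.5, 40.4, 19.9 and 35.8 FPKM with Vec (log2 difference -1.64, SE 0.076, adjusted p = 2.89e-07). MFSD1 was at 27.005, 45.1, 7.66 and 51.1 FPKM with CD28 shRNA, against 75.2, 109, 21.1 and 134 FPKM with Gapdh shRNA and 73.8, 105, 21.8 and 141 FPKM with Vec (log2 difference -1.36, SE 0.049, adjusted p = 2.7e-08). By the rule for the 12 largest falls, C20orf27 and MFSD1 lay below both controls in all 4 backgrounds, as did 9.37% of all genes. PVRL1, the adhesion protein nectin-1, was at 14.1, 10.4, 4.29 and 5.96 FPKM with CD28 shRNA, against 37.7, 20.9, 12.2 and 20.4 FPKM with Gapdh shRNA and 30.8, 19.4, 14.8 and 19.7 FPKM with Vec (log2 difference -1.29, adjusted p = 2.72e-05).

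Among the 12 largest falls were also 2 genes of mitochondria. SUCLA2, the ATP-forming subunit of succinyl-CoA synthetase in the citric acid cycle, was at 2.77, 5.59, 7.79 and 6.45 FPKM with CD28 shRNA, against 5.94, 11.9, 21.2 and 14.3 FPKM with Gapdh shRNA and 8.501, 13.9, 23.3 and 11.4 FPKM with Vec (log2 difference -1.12, SE 0.11, adjusted p = 0.000108). PPIF, or cyclophilin D, a regulator of the mitochondrial permeability pore, was at 26.6, 26.99, 30.6 and 27.4 FPKM with CD28 shRNA, against 98.2, 45.2, 75.998 and 47.6 FPKM with Gapdh shRNA and 89.7, 42.5, 70.5 and 44.5 FPKM with Vec (log2 difference -1.10, SE 0.14, adjusted p = 0.000569). The fall of PPIF was steeper in MM.1s and KMS18 (-1.78 and -1.23) than in RPMI8226 and the Mcl1 line (-0.68 and -0.73). The other members were NTHL1, a DNA glycosylase of base excision repair (-1.28), B4GALT1, a galactosyltransferase of the Golgi (-1.20), TMEM183A (-1.13), the ubiquitin ligase TTC3 (-1.11), KIFAP3, which links kinesin-2 to its cargo (-1.09), and SMG8, a factor of nonsense-mediated decay (-1.08), with adjusted p of 9.68e-06 to 0.000866. TTC3 fell by nearly the same amount in each background, with differences of -1.14, -1.10, -1.07 and -1.12. All 12 passed without any 1 of the backgrounds.

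**Figure D2:**
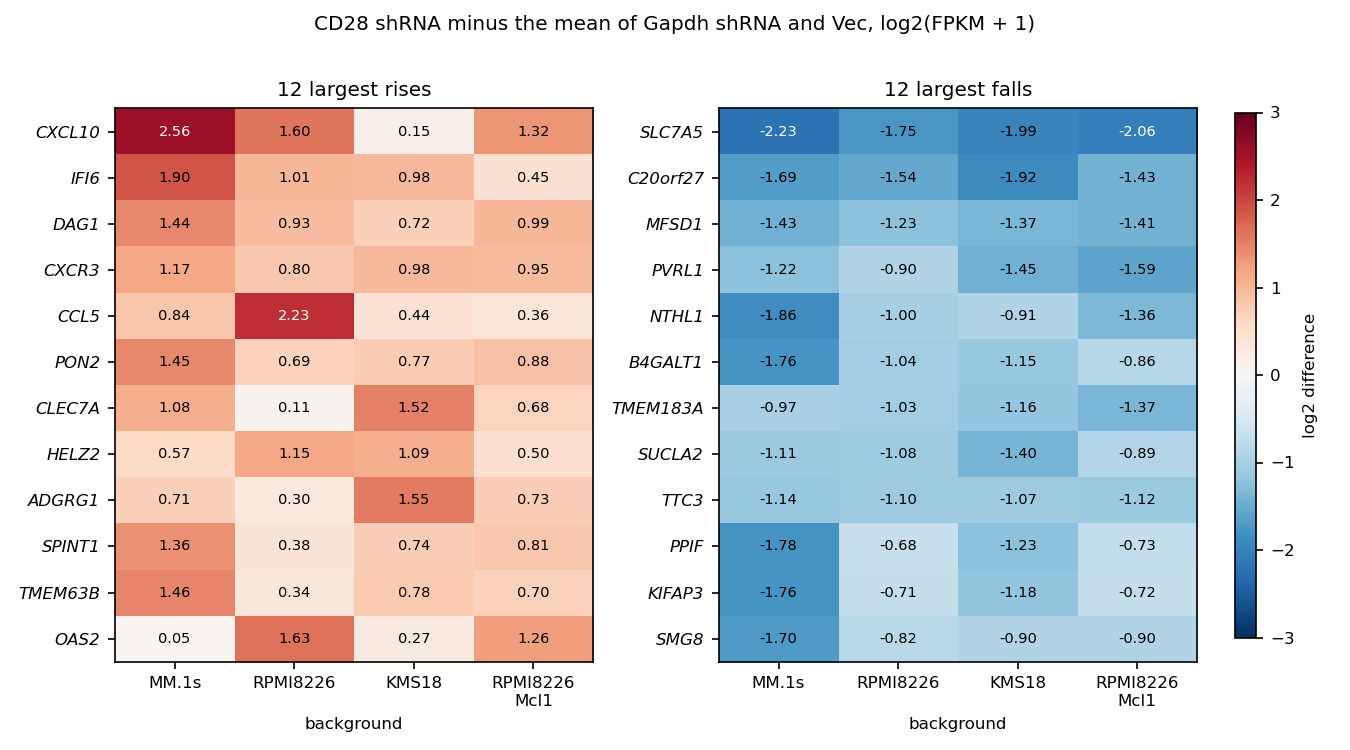
Difference in log2(FPKM + 1) between the CD28 shRNA library and the mean of its Gapdh shRNA and Vec libraries, in each background (columns), for the 12 largest rises and the 12 largest falls (rows). SLC7A5 differs by -1.75 to -2.23 in every background, whereas CXCL10 differs by 2.56 in MM.1s and 0.15 in KMS18.

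Many of the genes that fell most share a short sequence in the 3′ UTR, the part of the messenger RNA after the stop codon. Short hairpin RNAs are processed like microRNAs, which pair with 3′ UTRs through a few bases near their 5′ end, and this is why 3′ UTRs were read. All heptamers found in the 3′ UTRs (GENCODE 29, GRCh38) of at least 100 of 10560 matched genes were ranked in MM.1s by the difference in mean between genes with and without them, divided by its standard error. Of 15318 heptamers, CTGTGTT ranked 1st and TGTGTTA 2nd. The pair overlaps and joins to CTGTGTTA, 8 bases that also stand in the 3′ UTR of CD28 itself. The stretches below show that site (capitals) with its flanks in CD28 and in the 7 of the 12 largest falls that hold it, read 5′ to 3′ on the strand of the gene, with T for U.
CD28: ggtgagggagtCTGTGTTAtctgcaaggcc
SLC7A5: ccttctttattCTGTGTTAatggctaacct
C20orf27: acccctcaggtCTGTGTTActtggttttta
MFSD1: atttcttatttCTGTGTTActgaggaccct
B4GALT1: agtggtaacttCTGTGTTAttttactctta
TMEM183A: ggccctgttttCTGTGTTAaaaccccattt
SUCLA2: aatactgtgttCTGTGTTAttgttcttttt
TTC3: ccctgaggtatCTGTGTTAcaatcgttctg

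In GRCh38 these stretches lie at chr2:203738472-203738501 on the plus strand (CD28), chr16:87830103-87830132 on the minus strand (SLC7A5), chr20:3753561-3753590 on the minus strand (C20orf27) and chr3:158829555-158829584 on the plus strand (MFSD1). The others are at chr9:33111305-33111334 on the minus strand (B4GALT1), chr1:203023263-203023292 on the plus strand (TMEM183A), chr13:47943289-47943318 on the minus strand (SUCLA2) and chr21:37202532-37202561 on the plus strand (TTC3). All 8 are exonic and within the 3′ UTR of the transcript with the longest coding sequence, and outside the site their flanks differ. The distance of the site from the stop codon ranged from 64 bases in SUCLA2 to 3571 in CD28. PVRL1, PPIF, KIFAP3 and SMG8 hold at least 1 of the heptamers without the full 8 bases, and NTHL1 holds none.

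The same letters were then counted over all genes with a matched 3′ UTR, as a description, since these calls include MM.1s, in which the heptamers were ranked. CTGTGTTA stood in 4.99% of the 10560 genes, in 13.5% of those called lower and in 1.96% of those called higher. The full site or 1 of the heptamers stood in 27.6% of all genes, 51.4% of those called lower and 17.9% of those called higher. Of 22 matched genes that fell by at least 1 on the log2 scale, 9 held the 8 bases and 19 held 7 or 8. The genes without either heptamer still counted 460 higher and 412 lower calls among 7649, against 560 and 847 among all 10560. Because the heptamers were picked for falls in MM.1s, which these calls include, leaving out their carriers takes away mainly lower calls. No conclusion is drawn from what remains. Among genes described below that fell, CCND1, PDPK1, IDI1, IDH1 and IDH3A hold the 8 bases. BCL2L1, IRF4, FAM46C, NOLC1, MCM3, FEN1, DUSP2 and CHORDC1 hold a heptamer, and MYC, PRDM1, XBP1, SRM, SEC11C, SDF2L1, AURKB and KLF2 hold neither. Not every gene with a site fell. ITGAV, which was called higher, and MCL1 and CDKN1A, which were not called, hold the 8 bases. TNFRSF10B, TRAF1, BNIP3L and CDKN1C, which were called higher, hold a heptamer, as does BCL2L11, which was not called.

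Since the heptamers were ranked in MM.1s, the other 3 backgrounds give values that the ranking did not use. In RPMI8226, KMS18 and the Mcl1 line the median difference of genes with the 8 bases was -0.065, -0.11 and -0.11. Genes with 7 bases only had medians of -0.027, -0.05 and -0.038 there, and genes with none 0.015, 0.0078 and 0.00097. In the difference between Gapdh shRNA and Vec, a mean over all 4 backgrounds, the medians of the same classes were 0.0086, 0.0089 and -0.01. The typical member of each class thus moved little. In the fit without MM.1s, 17.1% of the 8-base class, 9.13% of the 7-base class and 2.77% of the rest were called lower, and 1.36%, 1.54% and 2.67% higher. The classes also differ in 3′ UTR length, with medians of 2958 bases for the 8-base class, 2372.5 for the 7-base class and 653 for the rest, and the part of length in these differences was not tested. The sequence search was made with earlier results of these libraries known, and whether the hairpin carries the matching bases was not tested.

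**Figure D3:**
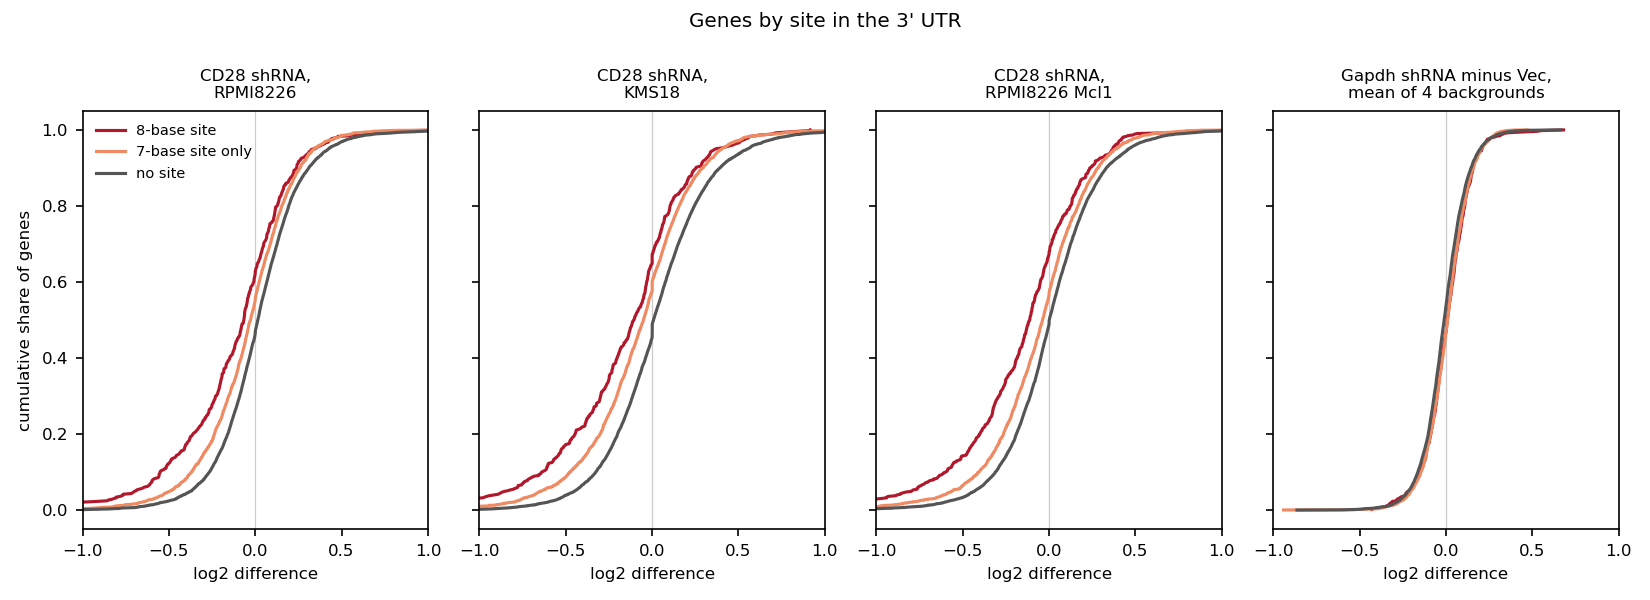
Cumulative share of genes (vertical axes) against the log2 difference (horizontal axes, drawn from -1 to 1) for genes with the 8-base site (527), a 7-base site only (2384) or no site (7649) in the 3′ UTR. With CD28 shRNA the curve of the 8-base class lies to the left of the others in RPMI8226, KMS18 and the Mcl1 line, and in Gapdh shRNA minus Vec the 3 curves nearly coincide.

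The 12 largest rises included CXCL10, its receptor CXCR3 and CCL5. CXCL10, an interferon-induced chemokine, was at 74.4, 15.5, 2.79 and 48.2 FPKM with CD28 shRNA, against 13.1, 3.42, 2.62 and 17.8 FPKM with Gapdh shRNA and 10.7, 5.73, 2.24 and 19.5 FPKM with Vec. The rise (log2 difference 1.41, SE 0.27, adjusted p = 0.00712) was large in MM.1s, RPMI8226 and the Mcl1 line and barely visible in KMS18, where the level was low throughout and 18 reads were counted in each library. CXCR3, the receptor of CXCL10, was at 40.98, 5.16, 6.86 and 7.99 FPKM with CD28 shRNA, against 20.1, 1.71, 2.46 and 3.96 FPKM with Gapdh shRNA and 15.5, 3.58, 3.56 and 3.39 FPKM with Vec (log2 difference 0.98, SE 0.14, adjusted p = 0.00134), about the same change in each background. CCL5, another chemokine, was at 23.3, 6.97, 33.6 and 10.1 FPKM with CD28 shRNA, against 13.6, 0.5201, 23.9 and 8.29 FPKM with Gapdh shRNA and 11.7, 0.908, 24.99 and 6.95 FPKM with Vec (log2 difference 0.97, adjusted p = 0.0198). Most of the CCL5 difference came from RPMI8226, where the controls had 4 and 8 reads, and the call did not hold without MM.1s (adjusted p = 0.0687).

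DAG1 and PON2 were also among the 12 largest rises. DAG1, or dystroglycan, which binds laminin, was at 13.9, 13.4, 10.2 and 14.6 FPKM with CD28 shRNA, against 4.59, 6.64, 6.01 and 6.38 FPKM with Gapdh shRNA and 4.37, 6.47, 5.599 and 7.299 FPKM with Vec (log2 difference 1.02, SE 0.10, adjusted p = 0.000112). All 4 CD28 shRNA libraries had more DAG1 than any of the 8 controls. PON2, an antioxidant enzyme of the paraoxonase family, was at 99.3, 27.9, 40.5 and 23.1 FPKM with CD28 shRNA, against 37.3, 17.6, 26.3 and 14.02 FPKM with Gapdh shRNA and 34.1, 16.3, 20.8 and 10.4 FPKM with Vec (log2 difference 0.95, SE 0.12, adjusted p = 0.000596). The remaining rises were the adhesion G protein-coupled receptor ADGRG1 (0.82), the protease inhibitor SPINT1 (0.82), the ion channel TMEM63B (0.82), the glucan receptor CLEC7A (0.85) and the interferon-induced genes IFI6, HELZ2 and OAS2. CLEC7A was not called without MM.1s (adjusted p = 0.0532). None of the 12 largest rises held either heptamer in its 3′ UTR.

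The interferon response had the highest share of rises of all lists with at least 4 tested genes. Of 25 tested members 14 rose (56%, against 5.09% of all genes) and none fell, with a median of 0.51. Genes were tested if they averaged at least 1 FPKM over all 12 libraries. Here and in the other lists, members low in the controls could thus enter the count through the CD28 shRNA libraries. How far this raised the shares of rises was not tested. IFI6, a mitochondrial protein induced by type I interferon, was at 17.6, 140.0, 3.51 and 34.2 FPKM with CD28 shRNA, against 4.35, 62.8, 2.06 and 21.03 FPKM with Gapdh shRNA and 3.68, 76.03, 0.704 and 29.3 FPKM with Vec (log2 difference 1.08, SE 0.21, adjusted p = 0.00659). MX1, a GTPase that restricts RNA viruses, was at 4.996, 74.99, 2.72 and 22.6 FPKM with CD28 shRNA, against 1.82, 14.1, 2.94 and 7.48 FPKM with Gapdh shRNA and 1.12, 16.7, 2.64 and 10.8 FPKM with Vec (log2 difference 1.18, SE 0.26, adjusted p = 0.0122). IFI6 was above both controls in each background, which the rule for the largest rises required, whereas MX1 lay between its controls in KMS18. Other rises were the 2′-5′-oligoadenylate synthetases OAS1 (0.83) and OAS2 (0.80), PARP9 (0.59), and the helicase HELZ2 (log2 difference 0.83, SE 0.13, adjusted p = 0.00185), one of the 12 largest rises, which is not on the list. The list's largest log2 difference was that of IFIT3, an antiviral protein (1.33, SE 0.20, adjusted p = 0.00158), which averaged 41.2 reads and so lay under the 50 reads asked of named genes. It had 12 to 228 reads per CD28 shRNA library, against 0 to 34 per Gapdh shRNA library and 6 to 61 per Vec library. IFI44 (1.03) and IFIT1 (1.00) were called with averages of 16.9 and 40.3 reads. These 3 genes were chosen after their values were seen.

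The interferon difference was uneven across the backgrounds. The median over the list was highest in RPMI8226 (1.15), followed by the Mcl1 line (0.41), MM.1s (0.33) and KMS18 (0.073). Without RPMI8226 3 of 19 members still tested passed, without the Mcl1 line 4 of 25, without MM.1s 8 of 24 and without KMS18 13 of 25. Where fewer than 25 members were tested, the missing ones fell under the filter on low values. With Gapdh shRNA alone as the control 3 passed, and with Vec alone 5. The adjusted p of MX1 was 0.059 without MM.1s, 0.0637 without RPMI8226 and 0.0625 without the Mcl1 line. OAS1 and OAS2 were not called without RPMI8226 (adjusted p = 0.0666 and 0.129) or the Mcl1 line (0.0649 and 0.143), and PARP9 was not called without MM.1s (0.151), RPMI8226 (0.195) or the Mcl1 line (0.109). The T and B cell marker sums given above reached their highest values in CD28 shRNA libraries too, 1 of 3 tested T cell markers (CD3E) and 1 of 5 tested B cell markers (CR2) were called higher, and their part in the result was not tested.

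Interferon-induced genes commonly carry a stimulated response element, and a core of that element is GAAANNGAAA. Promoters (RefSeq, GRCh38.p14, 250 bases before to 50 after the start) were found for 19 of the 25 tested members. The core stood on either strand in 14 of these 19, in 8 of the 10 that rose and in 6 of the 9 that did not, against 2.82% of 8488 promoters of tested genes. Among the 12 largest rises 9 had a promoter, and CXCL10 and IFI6 held the core. The stretches below show the core in capitals on the strand of the gene, for the 2 of the 12 largest rises that hold it and for MX1.
CXCL10: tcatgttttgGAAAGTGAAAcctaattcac
IFI6: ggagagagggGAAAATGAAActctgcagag
MX1: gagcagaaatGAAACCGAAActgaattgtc

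They lie at chr4:76023699-76023728 on the minus strand (CXCL10), chr1:27672329-27672358 on the minus strand (IFI6) and chr21:41420559-41420588 on the plus strand (MX1). The core begins 221 bases before the start in CXCL10 and 156 before it in IFI6. A match is a description of these letters, and binding was not measured.

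The NF-kB pathway also moved in 1 direction where it passed. Of 22 tested members 6 rose (27.3%, against 5.09% of all genes) and none fell, with a median of 0.20. NFKB2, the precursor of the p52 subunit of the non-canonical branch, was at 95.2, 16.6, 36.6 and 34.6 FPKM with CD28 shRNA, against 59.4, 9.12, 29.1 and 18.9 FPKM with Gapdh shRNA and 49.7, 7.42, 36.2 and 18.6 FPKM with Vec (log2 difference 0.69, SE 0.12, adjusted p = 0.0034). In KMS18 NFKB2 was close to the Vec library, and elsewhere it was clearly above both controls. TNIP1, which dampens NF-kB signalling, rose by 0.39 (adjusted p = 0.003) and was above both controls in each background. The other calls were RELB (0.64), the partner of p52, BCL3 (0.49), TRAF1 (0.48) and BIRC3 (0.39), the last with no read in any of the 3 KMS18 libraries. These 4 were not called without RPMI8226 (adjusted p = 0.118 for BCL3, 0.0926 for RELB, 0.0972 for TRAF1, 0.151 for BIRC3) or without the Mcl1 line (0.133, 0.0823, 0.0792 and 0.117 in the same order). RELB, BCL3 and BIRC3 were also not called without MM.1s (0.126, 0.082 and 0.236), nor TRAF1 without KMS18 (0.0854). The NF-kB count was 3 without MM.1s, 2 without RPMI8226 and 2 without the Mcl1 line, and 0 with Vec alone as the control, where 459 genes passed in all.

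Among regulators of cell death, the survival gene BCL2L1 fell. BCL2L1, which encodes BCL-xL, was at 88.999, 61.9, 45.4 and 49.8 FPKM with CD28 shRNA, against 185, 88.6, 58.9 and 91.03 FPKM with Gapdh shRNA and 155, 84.2, 59.8 and 89.6 FPKM with Vec (log2 difference -0.65, SE 0.084, adjusted p = 0.000668). It was at 63.9% ± 11.9 of the control level (SD, n = 4 backgrounds), below both controls in each. MCL1, the main survival protein of plasma cells, was at 120.2, 62.7, 86.02 and 168 FPKM with CD28 shRNA, against 133, 54.5, 85.7 and 131 FPKM with Gapdh shRNA and 115, 51.2, 82.04 and 127 FPKM with Vec and was not called (log2 difference 0.15, adjusted p = 0.164; exact permutation p = 0.0617). The Mcl1 line had more MCL1 message with CD28 shRNA than with either control, at 168, against 131 and 127 FPKM, and reads of the added gene and the cell's own cannot be told apart. BCL2L11, the pro-apoptotic protein BIM and a FOXO target, was at 34.1, 32.4, 6.46 and 33.3 FPKM with CD28 shRNA, against 40.3, 27.99, 8.09 and 33.1 FPKM with Gapdh shRNA and 42.4, 27.4, 6.62 and 33.3 FPKM with Vec and showed no common direction (log2 difference -0.051, adjusted p = 0.724).

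Of 9 tested pro-apoptotic relatives 2 rose (22.2%, against 5.09% of all genes) and none fell. BBC3, the p53-induced protein PUMA, was at 18.6, 11.6, 21.2 and 14.9 FPKM with CD28 shRNA, against 14.7, 7.32, 10.5 and 10.04 FPKM with Gapdh shRNA and 12.4, 6.85, 13.4 and 11.3 FPKM with Vec (log2 difference 0.58, SE 0.09, adjusted p = 0.00213). BID, which is cleaved by caspase-8, was at 31.4, 9.84, 17.7 and 10.7 FPKM with CD28 shRNA, against 16.5, 5.92, 15.03 and 7.698 FPKM with Gapdh shRNA and 19.1, 5.97, 14.5 and 7.35 FPKM with Vec (log2 difference 0.53, SE 0.086, adjusted p = 0.00264). Both were above both controls in every background. Of 24 p53 targets 3 rose (12.5%), BBC3 and the death receptors FAS (0.58) and TNFRSF10B (0.50). GADD45A (-0.32) was the 1 that fell (4.2%, against 7.69% of all genes), and the median was 0.19. FAS was not called without MM.1s (adjusted p = 0.125), RPMI8226 (0.0938) or the Mcl1 line (0.0982), nor was TNFRSF10B (0.107, 0.105 and 0.122), and GADD45A was not called without RPMI8226 (0.057) or the Mcl1 line (0.0931). CDKN1A, the p53-induced cell cycle inhibitor p21, was at 0.017 (log2 difference).

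The plasma cell transcription factors IRF4, PRDM1 and XBP1 were called lower, of which only IRF4 was also called whichever background was left out. IRF4, on which myeloma cells depend, was at 56.97, 29.5, 74.9 and 31.2 FPKM with CD28 shRNA, against 100.1, 35.2, 90.3 and 48.5 FPKM with Gapdh shRNA and 101, 38.7, 93.3 and 50.9 FPKM with Vec (log2 difference -0.52, SE 0.079, adjusted p = 0.00185). It lay below both controls in each background, by -0.81, -0.31, -0.29 and -0.66 on the log2 scale. PRDM1, or BLIMP-1, was at 44.7, 12.4, 39.6 and 11.4 FPKM with CD28 shRNA, against 64.1, 14.7, 41.4 and 14.3 FPKM with Gapdh shRNA and 65.5, 13.97, 45.4 and 18.3 FPKM with Vec (log2 difference -0.33, SE 0.083, adjusted p = 0.0239). XBP1, the factor of the secretory programme, differed by -0.18 (adjusted p = 0.0393) and by -0.36, -0.021, -0.18 and -0.17 in the backgrounds. PRDM1 was not called without MM.1s (adjusted p = 0.128), RPMI8226 (0.0528) or the Mcl1 line (0.0838), and XBP1 was not called without MM.1s (0.15), KMS18 (0.112) or the Mcl1 line (0.118). XBP1 was also not called after rescaling by the median of ratios (adjusted p = 0.0606). With Vec alone as the control the adjusted p was 0.0281 for IRF4, 0.0786 for PRDM1 and 0.136 for XBP1. With Gapdh shRNA alone it was 0.0681, 0.165 and 0.225 in the same order.

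Of 20 tested genes of plasma cell identity and secretion 6 fell (30%, against 7.69% of all genes) and 1 rose, with a median of -0.17. FAM46C, a poly(A) polymerase that is often mutated in myeloma, was at 69.1, 33.5, 43.2 and 33.2 FPKM with CD28 shRNA, against 132, 45.2, 62.1 and 55.8 FPKM with Gapdh shRNA and 131, 45.8, 56.5 and 53.1 FPKM with Vec (log2 difference -0.62, SE 0.074, adjusted p = 0.000362). SEC11C, a subunit of the signal peptidase, fell by a smaller amount (log2 difference -0.31, adjusted p = 0.00242). CD38, a surface enzyme and drug target, was the member that rose, at 25.3, 15.7, 6.83 and 27.9 FPKM with CD28 shRNA, against 9.84, 11.04, 3.56 and 21.2 FPKM with Gapdh shRNA and 7.77, 14.4, 3.15 and 23.1 FPKM with Vec (log2 difference 0.72, SE 0.16, adjusted p = 0.0134), and was not called without KMS18 (adjusted p = 0.0637). The count of falls was 3 without MM.1s or the Mcl1 line and 4 after rescaling by the median of ratios. With Vec alone as the control it was 2, and with Gapdh shRNA alone 3. Of 23 chaperones and unfolded protein response genes 3 rose (13%, against 5.09% of all genes) and 3 fell (13%, against 7.69%), with a median of 0.0049. SDF2L1, a chaperone of the endoplasmic reticulum, fell (log2 difference -0.61, adjusted p = 0.00089) and calreticulin (CALR) rose (log2 difference 0.22, adjusted p = 0.00574).

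**Figure D4:**
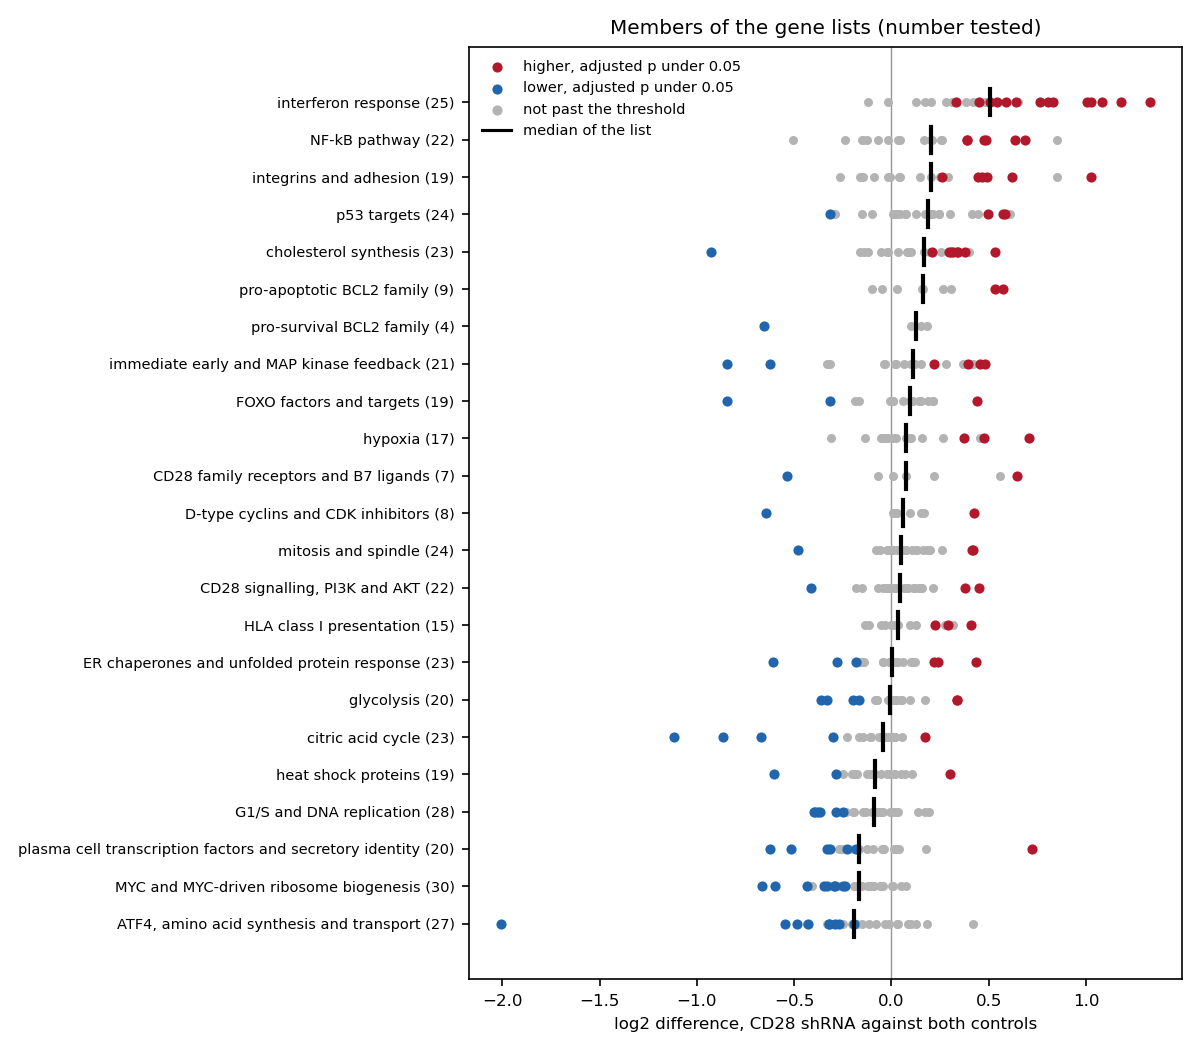
Difference between CD28 shRNA and both controls on the log2 scale (horizontal axis) for the tested members of 23 gene lists (rows, with the number tested). Points are genes, coloured where the adjusted p was under 0.05, and black bars are list medians, from 0.51 for interferon response genes to -0.19 for amino acid synthesis and transport.

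MYC and some genes of ribosome production fell. MYC, a transcription factor of growth, was at 197, 377, 210.4 and 326 FPKM with CD28 shRNA, against 325, 403, 374 and 343 FPKM with Gapdh shRNA and 338, 401, 353 and 361 FPKM with Vec (log2 difference -0.43, SE 0.10, adjusted p = 0.0183). It was below both controls in each background, by -0.75, -0.094, -0.78 and -0.11, so that the difference lay mainly in MM.1s and KMS18. MYC was not called without MM.1s (adjusted p = 0.105) or without KMS18 (0.0964). Of 30 tested genes of MYC and its ribosome biogenesis programme 9 fell (30%, against 7.69% of all genes) and none rose, with a median of -0.17, against -0.07 between Gapdh shRNA and Vec. NOLC1, a nucleolar chaperone, was at 50.8, 55.3, 52.9 and 58.1 FPKM with CD28 shRNA, against 82.98, 77.5, 91.8 and 81.3 FPKM with Gapdh shRNA and 87.9, 87.1, 95.2 and 90.3 FPKM with Vec (log2 difference -0.67, SE 0.059, adjusted p = 5.17e-05). SRM, spermidine synthase, was at 111, 192, 154 and 152 FPKM with CD28 shRNA, against 186, 254, 231 and 233 FPKM with Gapdh shRNA and 203, 275, 209.6 and 236 FPKM with Vec (log2 difference -0.60, SE 0.057, adjusted p = 9.03e-05). Both were at about the same share of control in all backgrounds, 62.7% ± 5.57 for NOLC1 and 66.1% ± 6.79 for SRM (SD, n = 4 backgrounds). The nucleolar methyltransferase FBL (-0.35) and lactate dehydrogenase LDHA (-0.33) fell as well. The count of falls was 5 without KMS18 and 7 to 10 without 1 of the others.

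Amino acid synthesis and transport showed the lowest median of the lists. Of 27 tested genes of the ATF4 programme 9 fell (33.3%, against 7.69% of all genes) and none rose, with a median of -0.19, against -0.10 between Gapdh shRNA and Vec. SLC3A2, the heavy chain that pairs with SLC7A5 in the LAT1 transporter, was at 43.3, 71.6, 141 and 73.5 FPKM with CD28 shRNA, against 50.6, 88.3, 243 and 119.8 FPKM with Gapdh shRNA and 53.8, 92.7, 201 and 121 FPKM with Vec (log2 difference -0.48, SE 0.076, adjusted p = 0.0022). SLC3A2 lay below both controls in each background and holds neither heptamer in its 3′ UTR. Of the serine synthesis enzymes, PSAT1 was lower (log2 difference -0.43, adjusted p = 0.00786) and so was PHGDH (log2 difference -0.55, adjusted p = 0.0212). PSAT1 was not called without the Mcl1 line (adjusted p = 0.0526), and PHGDH was not called without MM.1s (0.0646), RPMI8226 (0.0706) or the Mcl1 line (0.117). The log2 difference of ATF4 itself was -0.082. The count of falls was 3 without the Mcl1 line, 5 without MM.1s and 1 with Gapdh shRNA alone as the control.

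A minority of the DNA replication genes passed, all of them lower. Of 28 tested genes of G1/S and replication 6 fell (21.4%, against 7.69% of all genes) and none rose, with a median of -0.091, while the median between Gapdh shRNA and Vec was -0.17. MCM3, a subunit of the replicative helicase, was at 75.99, 91.1, 88.1 and 94.4 FPKM with CD28 shRNA, against 90.1, 103, 127 and 114 FPKM with Gapdh shRNA and 110.0, 111, 131 and 121 FPKM with Vec (log2 difference -0.37, SE 0.064, adjusted p = 0.00387). FEN1, the flap endonuclease, differed by -0.38 (adjusted p = 0.00612). Of the list 2 members passed without MM.1s, KMS18 or the Mcl1 line and 0 with Gapdh shRNA alone as the control, where 236 genes passed in all. Of 24 mitosis genes 2 rose (8.3%, against 5.09% of all genes) and 1 fell (4.2%, against 7.69%). The fall was that of AURKB, the kinase Aurora B (log2 difference -0.48, adjusted p = 0.0068). Of 8 D-type cyclins and inhibitors 1 rose and 1 fell (12.5% each). CCND1, cyclin D1, was lower (log2 difference -0.64, adjusted p = 0.0171), with at most 2 reads per KMS18 library, and was not called without MM.1s (adjusted p = 0.0926), RPMI8226 (0.0643) or the Mcl1 line (0.0818). CDKN1C was higher (log2 difference 0.43, adjusted p = 0.0269) and was called in none of the fits that left out 1 background.

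Integrins and adhesion molecules were higher where they passed. Of 19 tested genes 6 rose (31.6%, against 5.09% of all genes) and none fell, with a median of 0.20. ITGB1, the beta-1 integrin through which myeloma cells bind fibronectin, was at 49.1, 20.6, 21.4 and 31.97 FPKM with CD28 shRNA, against 26.03, 13.8, 13.9 and 24.1 FPKM with Gapdh shRNA and 24.3, 13.7, 14.4 and 22.9 FPKM with Vec (log2 difference 0.62, SE 0.076, adjusted p = 0.000492). Each CD28 shRNA library was above both of its controls. Of the others, DAG1 is described above, and ITGB5 (0.46), SELPLG, the P-selectin ligand (0.44), ITGAV (0.49) and CD9 (0.26) were called on smaller differences. ITGB7, an integrin of plasma cell homing, was at 1373, 625, 119 and 593 FPKM with CD28 shRNA, against 1591, 797, 96.6 and 689 FPKM with Gapdh shRNA and 1348, 783, 73.2 and 615 FPKM with Vec and did not move in 1 direction (log2 difference -0.017, adjusted p = 0.945). ITGB5 was not called without MM.1s (adjusted p = 0.0689), SELPLG without the Mcl1 line (0.0579), CD9 without MM.1s (0.0934) or the Mcl1 line (0.0941), or ITGAV without MM.1s (0.104), KMS18 (0.0545) or the Mcl1 line (0.141). The count was 3 without MM.1s or the Mcl1 line.

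Cholesterol synthesis and the citric acid cycle each contained members that moved apart from the rest. Of 23 tested cholesterol genes 8 rose (34.8%, against 5.09% of all genes) and 1 fell, with a median of 0.17. SREBF2, the transcription factor of the pathway (log2 difference 0.38, SE 0.069, adjusted p = 0.00545), and HMGCS1, which makes HMG-CoA (log2 difference 0.34, SE 0.064, adjusted p = 0.00612), rose. IDI1, isopentenyl diphosphate isomerase, fell against them, at 16.5, 17.4, 15.3 and 14.4 FPKM with CD28 shRNA, against 34.7, 30.5, 27.9 and 27.2 FPKM with Gapdh shRNA and 33.3, 34.2, 30.5 and 31.7 FPKM with Vec (log2 difference -0.93, SE 0.063, adjusted p = 9.68e-06). IDI1 holds the 8 bases in its 3′ UTR. The count of rises was 4 without MM.1s and 2 without the Mcl1 line, and it was 0 with Gapdh shRNA alone and 2 with Vec alone as the control.

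Of 23 tested genes listed with the citric acid cycle, cytosolic IDH1 among them, 4 fell (17.4%, against 7.69% of all genes) and 1 rose, with a median of -0.044. Beside SUCLA2, the falls were those of IDH1, SUCLG2 and IDH3A. IDH1, the cytosolic isocitrate dehydrogenase, was at 6.09, 5.58, 5.24 and 5.76 FPKM with CD28 shRNA, against 12.3, 11.2, 14.1 and 9.52 FPKM with Gapdh shRNA and 11.1, 10.1, 10.3 and 11.1 FPKM with Vec (log2 difference -0.87, SE 0.094, adjusted p = 0.000189). SUCLG2, the GTP-forming counterpart of SUCLA2, differed by -0.67 (SE 0.11, adjusted p = 0.00257). The call of IDH3A (log2 difference -0.30, adjusted p = 0.0369) did not hold without RPMI8226 (adjusted p = 0.174), KMS18 (0.111) or the Mcl1 line (0.153). SUCLA2, IDH1 and IDH3A hold the 8 bases and SUCLG2 neither heptamer. Glycolysis genes other than GAPDH gave 2 rises (10%) and 4 falls (20%) of 20, and hypoxia genes 3 rises of 17 (17.6%), against 5.09% and 7.69% of all genes called higher and lower, among them BNIP3L, a receptor of mitophagy (log2 difference 0.48, adjusted p = 0.00765).

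Signalling components changed in few members. Of 22 tested genes of CD28 signalling, PI3K and AKT 2 rose (9.1%) and 1 fell (4.5%). Of all genes 5.09% were called higher and 7.69% lower. PDPK1, the kinase that activates AKT, was the member that fell (log2 difference -0.41, SE 0.084, adjusted p = 0.00919), at 5.38, 9.501, 5.73 and 10.3 FPKM with CD28 shRNA, against 9.74, 12.1, 8.68 and 13.4 FPKM with Gapdh shRNA and 8.49, 10.9, 7.76 and 12.3 FPKM with Vec, and it holds the 8 bases in its 3′ UTR. The exchange factor VAV1 was called as higher (log2 difference 0.38), and its call did not hold without KMS18 (adjusted p = 0.136) or the Mcl1 line (0.101). Of 19 FOXO factors and targets 1 rose (5.3%) and 2 fell (10.5%). The falls included KLF2, a transcription factor of lymphocyte quiescence and homing, which was at 13.5, 2.596, 9.83 and 3.62 FPKM with CD28 shRNA, against 29.99, 6.395, 12.6 and 7.38 FPKM with Gapdh shRNA and 16.4, 6.43, 18.6 and 10.4 FPKM with Vec (log2 difference -0.85, SE 0.16, adjusted p = 0.00674).

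Of 21 tested immediate early and MAP kinase feedback genes 4 rose (19%, against 5.09% of all genes) and 2 fell (9.5%, against 7.69%). KLF2 is counted here too, and DUSP2, a MAP kinase phosphatase, was the other member that fell (log2 difference -0.62, adjusted p = 0.00545). SPRED2, an inhibitor of the RAS pathway (log2 difference 0.48, adjusted p = 0.00651), and the transcription factors KLF10 (log2 difference 0.46, adjusted p = 0.00305) and KLF6 (log2 difference 0.39, adjusted p = 0.00881) rose. Of 19 heat shock genes 1 rose (5.3%) and 2 fell (10.5%), led by the co-chaperone CHORDC1 (log2 difference -0.60, adjusted p = 0.000931). Of 15 genes of HLA class I presentation 3 rose (20%) and none fell. The rises were led by the peptide-trimming enzyme ERAP2 (log2 difference 0.41, adjusted p = 0.0104), which was not called without MM.1s (adjusted p = 0.0622) or the Mcl1 line (0.0606). The count of rises in HLA class I presentation was 0 without MM.1s.

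The response was also compared among the 4 backgrounds. A test of the interaction between CD28 shRNA and background called 1 gene (0.00881%), against 1384 at an unadjusted p under 0.05 (12.2%). That gene, MIR647, had 0 to 5 reads per CD28 shRNA library, against 2 to 6 per Gapdh shRNA library and 3 to 6 per Vec library, so few that its size is uncertain. With 1 CD28 shRNA library per background the spread came from the control pairs alone, so differences such as those of MYC, CXCL10 and the interferon list between backgrounds were not shown by this test. In the authors' deposited table, which compares CD28 shRNA with Vec on libraries that overlap with these, the log2 fold changes were -2.05 for SLC7A5, -0.53 for BCL2L1, -0.52 for MYC, 0.75 for ITGB1 and 1.81 for CXCL10. Which libraries entered that comparison is not certain, and the Mcl1 line may have been left out of it.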

How the data were processed

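RNA of 12 libraries (4 backgrounds by 3 constructs) was analysed; the 4 CD86 shRNA libraries were not used. FPKM per gene and library, with exon lengths, were deposited by the authors in 1 table, together with their own log2 fold changes and p-values for CD28 shRNA against Vec, per the file headers. The submitters' processing notes name edgeR 3.12.1, R 3.2.2, Picard and TopHat2 2.0.13 as tools, and as builds GRCh37, hg19 and mm9, without roles. Per the labels' protocols RNA was isolated on Qiagen columns and libraries were made with the Illumina TruSeq mRNA kit. No source used here states a strand setting; reads of overlapping or antisense genes cannot be told apart while paralogs may share reads. FPKM times exon length gave whole reads for 100% of values (tolerance 0.02 reads). Of read numbers up to 50, 72.2% to 74.7% were even, so mates were probably counted separately and independent fragments are fewer. Of the 23459 entries, 61 had no symbol.

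Genes averaging 1 FPKM or more were tested on log2(FPKM + 1), which understates the change of low genes, with limma 3.58.1 in R 4.3.3 (eBayes with trend) with terms for construct and background (7 residual degrees of freedom), two-sided, with Benjamini-Hochberg adjustment and a threshold of 0.05. The background pairs the libraries: across genes, deviations correlated by r = 0.892 to 0.953 in the 12 pairs of the same background and by -0.702 to 0.684 in the 54 others. P-values rest on the spread left after these terms. It combines differences between Gapdh shRNA and Vec within a background with variation of the CD28 shRNA difference among backgrounds. The procedure was tested on simulated data. Named genes are those named whatever their result (CD28, CD86, MYC, IRF4, PRDM1, XBP1, MCL1, BCL2L1, BCL2L11, ITGB1, ITGB7 and SLC7A5), the 12 largest rises and 12 largest falls among called genes outside both controls in every background with at least 50 mean reads, up to 6 called members of a list, and genes of the interaction test; unchanged genes named beside a list (CDKN1A, ATF4 and CD80) and 3 interferon genes with few reads (IFIT3, IFI44 and IFIT1) were added after their values were seen. Members, lists and tests were chosen with earlier results of these data known. The hairpin sequences were not analysed here. Alternatives were other control sets, scalings, filters and pseudocounts, voom on recovered reads, no block and leaving out each background. Some list members are counted in their lists and not reported by name here.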

Additional observations from a re-analysis of the deposited data

Results flagged for a closer look

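In 4 genes the CD28 shRNA difference of MM.1s stood apart from the other backgrounds by Dixon's criterion. The log2 difference in MM.1s was -1.70 for SMG8, 0.88 for CDKN1C, -0.82 for CHORDC1 and 0.61 for KLF6. Chance flags about 1 in 20 groups, and the 120 named genes were examined. MIR647 had an adjusted p of 0.0249 for a response that differs among backgrounds, with 0 reads with CD28 shRNA in the Mcl1 line against 4 each with Gapdh shRNA and Vec.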

How the results depend on the processing

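The direction of the named genes was the same under every alternative except for BCL2L11 (-0.14 to 0.022 without 1 background), ITGB7 (0.085 with Vec alone, 0.0029 when rescaled by the median of ratios, and -0.19 to 0.089 without 1 background) and MIR647 (-0.82 to 0.42 without 1 background), none of them called. Of 115 called named genes other than CD28, 53 passed without each background and 26 under every alternative that kept the block. The block is the term for background, by which the libraries are paired: with no replicate block 18 genes were called (1 higher, 17 lower; 448 unadjusted) and CD28 stayed at -0.54 with an adjusted p of 0.846. With Gapdh shRNA alone 236 genes were called (62 higher, 174 lower), with Vec alone 459 (136 and 323), and 85 and 59 of the named genes' calls were lost in these fits, which hold fewer libraries. Without a filter 376 were higher and 672 lower, with voom 914 and 1001, and after rescaling by the median of ratios 679 and 777. Among genes with neither heptamer, a restriction chosen after seeing the data, 872 were called, 412 of them lower. Leaving out 1 background gave 689 to 941 calls (234 to 359 higher, 455 to 587 lower). Between the controls limma called 0 genes without a filter (852 unadjusted), without the block (25), with a pseudocount of 0.1 (636) and after thinning (658), voom called 0 (764), and leaving out 1 background gave 0 to 2. For differences among backgrounds the count was 2 with the median of ratios, 552 without a filter, 4 with a pseudocount of 0.1, 10 with robust eBayes, 0 after thinning (1205 unadjusted), 41 with voom and 3 to 5 without 1 background. The causes were not tested. Depth limits genes with few reads: 82 called genes averaged under 50.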
